A study of Mus musculus with 23 samples.

Results

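Medullary thymic epithelial cells (mTECs) of wild-type (WT) mice were compared between 2 sorted populations, one high and one low for MHC class II on the cell surface (mTEChi and mTEClo). The comparison was defined by the library labels alone, as the 7 WT mTEChi against the 8 WT mTEClo libraries of bulk RNA sequencing, 15 of the 23 libraries in the series, and it covered every gene of the count table. All mice were C57BL/6. EpCAM-positive thymic cells without staining for CD45, Ly51 or the dead-cell dye DAPI were sorted and then split by MHC class II. The mTEChi libraries came from 4-week-old (2 libraries) and 5-week-old mice (5 libraries), with 5 male and 2 female libraries. The mTEClo libraries came from 4-week-old (5 libraries) and 5-week-old mice (3 libraries), with 5 male and 3 female libraries, so age was shared unequally between the gates. Beside them stood 4 mTEChi and 4 mTEClo libraries of Aire knockout (KO) mice, all male and 5 or 6 weeks old, in which the same gate comparison was made with no library in common. The labels do not say that libraries came from separate animals, so p-values measure the spread between these libraries, which may be technical.

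mTECs present peptides of genes that are otherwise used in single peripheral tissues, and T cells that bind these peptides too strongly are deleted or turned into regulatory T cells. In textbook accounts the population high for MHC class II holds the cells that express Aire, a nuclear protein that releases transcription of many tissue-restricted genes, together with the costimulatory ligands that thymocytes meet in the medulla. The population low for MHC class II is known to be mixed. It holds immature cells that make the chemokine CCL21 and attract thymocytes, and cells past the Aire stage that take on programmes of peripheral cell types, such as thymic tuft cells. In bulk RNA, fewer cells of a type and less RNA per cell cannot be told apart, and this holds for every difference below.

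Library totals lay between 1602125 and 3231079 counted reads in mTEChi and between 1628778 and 3883437 in mTEClo. Levels are given as CPM, the reads of a gene per 1000000 counted reads after scaling with TMM factors, with no correction for gene length. A change is the fitted log2 ratio of mTEChi over mTEClo from edgeR's quasi-likelihood test over all 23 libraries with a term for sex. Genes are called higher or lower where its p, adjusted by Benjamini and Hochberg's method across all 19310 genes tested, was below 0.05. In each gate, the 2 libraries with fewer than 2000000 reads (replicates 1 and 2) stood apart in some transcripts. H2-Aa was at 808 and 812 CPM in these mTEChi libraries and between 546 and 615 CPM in the other 5. Both gates had 2 such libraries, and the counts of changed genes without them are given in the closing section.

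The 4 genes that mark the gates separated the libraries without overlap. Aire had 818 ± 56.0 CPM (SD, n = 7) in mTEChi, with the lowest, median and highest library at 753, 821 and 921 CPM, and 69.2 ± 33.4 CPM (SD, n = 8) in mTEClo, at 19.6, 76.7 and 128 CPM. Its log2 change was 3.58 (SE 0.31), with an adjusted p of 2.90e-09 in edgeR. The mTEClo libraries did contain Aire transcripts, in amounts that ran from 19.6 to 128 CPM. Cd80, a ligand of the costimulatory receptor CD28, was at 185, 200.3 and 217 CPM in the lowest, median and highest mTEChi library and at 14.1, 19.5 and 28.1 CPM in mTEClo, a log2 change of 3.35 (SE 0.15). Gnat3, the G protein alpha subunit of taste transduction and a tuft cell gene, was at 5.71, 8.46 and 14.3 CPM in mTEChi and 128, 141 and 171 CPM in mTEClo, a log2 change of -3.94 (SE 0.14). Lifr, the receptor for leukemia inhibitory factor, was at 103, 134 and 166 CPM in mTEChi and 1296, 1507 and 1799 CPM in mTEClo, a log2 change of -3.56 (SE 0.11).

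**Figure D1:**
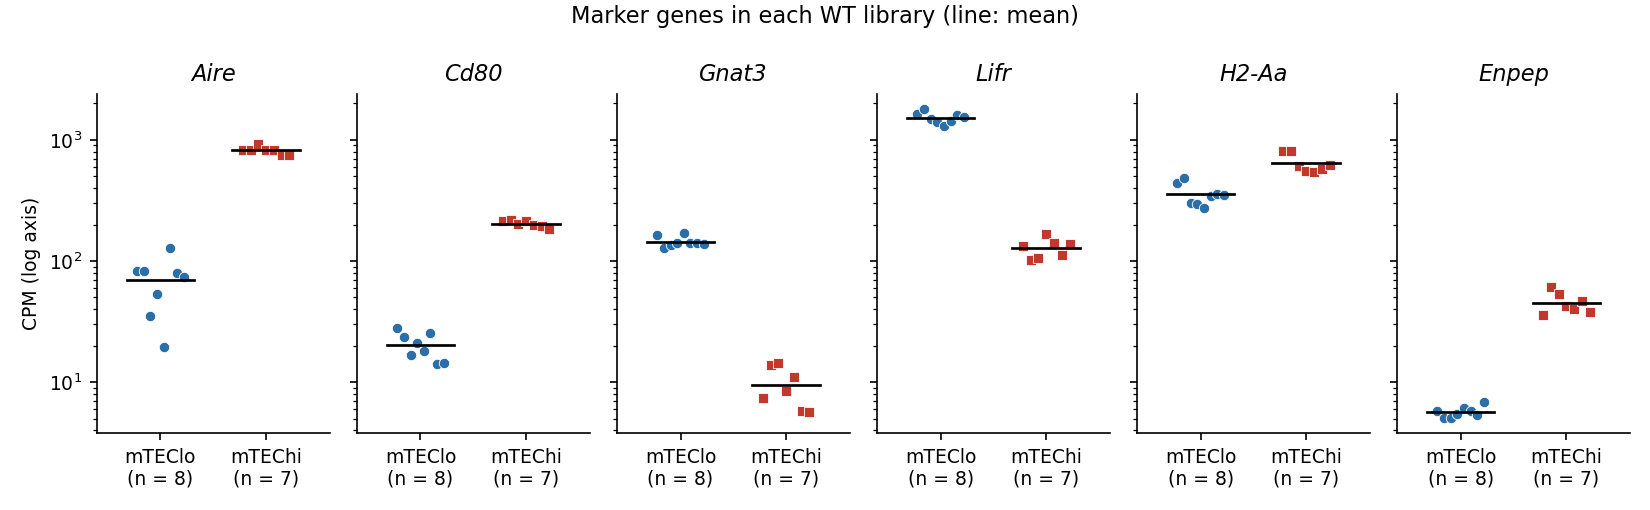
CPM (log axis) of 6 genes in each WT library, with mTEClo as circles (n = 8), mTEChi as squares (n = 7) and the group mean as a line. Every Aire, Cd80 and Enpep value of mTEChi lies above every value of mTEClo, every Gnat3 and Lifr value lies below, and H2-Aa has the narrowest gap, between 483 and 546 CPM.

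Of the sort markers, Epcam was at 244 against 254 CPM in mTEChi and mTEClo and did not pass the test (log2 change -0.08, SE 0.08). Ptprc, which encodes CD45, was detected in both gates at 22.5 against 18.4 CPM and did not pass either (log2 change 0.26, SE 0.23). H2-Aa and H2-Ab1, the chains of the MHC class II molecule by which the gates were split, were higher in mTEChi at 646 against 357 CPM and 566 against 372 CPM. Enpep, which encodes the Ly51 antigen that the sort excluded, was at 35.9 to 61.2 CPM in mTEChi and 5.09 to 6.90 CPM in mTEClo, a log2 change of 2.96 (SE 0.19).

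Most of the transcriptome differed between the gates. Of 19310 genes, 7087 were higher in mTEChi (36.7%) and 6454 were lower (33.4%), 70.1% in all. The size of the differences was uneven. More than 4-fold differences ran to 2811 genes higher in mTEChi (14.6%) against 689 lower (3.57%). All mTEChi libraries lay above all mTEClo libraries for 4792 genes (24.8%), and below them for 3773 (19.5%). Counts of list and family members below are to be read against these shares of all genes. Genes were also split by their mean over the 4 groups, KO included. The share higher in mTEChi was 51.5% at a mean of 1 to 5 CPM and 32.2% over 100 CPM, while the share lower rose from 20.0% to 43.2%. A gene with a low mean can pass the filter on low counts through the group where it is high, so these shares describe the table. After thinning each library to 1602125 reads, mTEChi libraries held 28430 ± 387 genes with at least 1 count (SD, n = 7) and mTEClo libraries 23557 ± 251 (SD, n = 8), out of 53402 identifiers. The exact two-sided permutation p was 0.00031, the smallest these groups allow, and 0.00093 after adjustment over 3 library measures, with all mTEChi libraries above all mTEClo libraries. The share of reads in the 100 most counted genes was 8.58% in mTEChi and 9.10% in mTEClo (exact permutation p = 0.145).

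**Figure D2:**
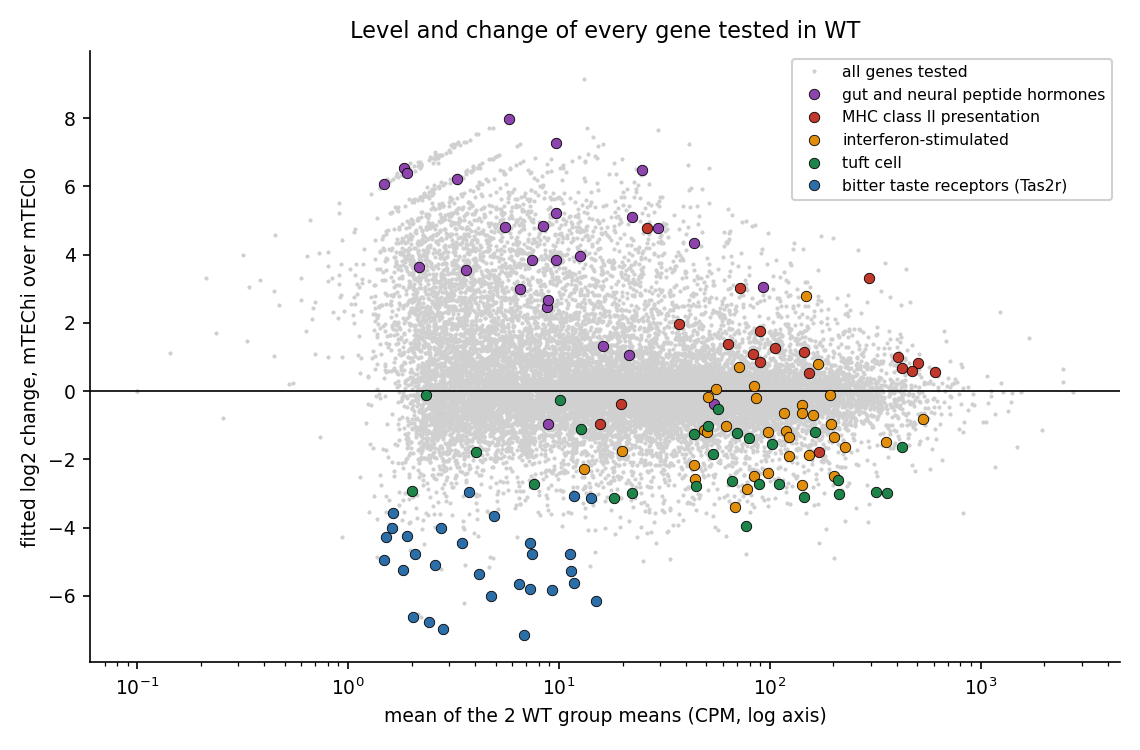
Mean level (mean of the 2 WT group means, CPM, log axis) against the fitted log2 change of mTEChi over mTEClo for the 19310 genes tested in grey, with members of 4 gene lists and the bitter taste receptor genes coloured. Large rises reach further than large falls, peptide hormone genes lie high on the left and bitter taste receptor genes lie at the bottom.

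The largest rises were of genes with no reads or almost none in mTEClo. Among named genes with at least 5 CPM in mTEChi and no overlap between libraries, the 12 with the largest log2 change were Alppl2, Cckar, Ibsp, Trh, Mgat4c, Aipl1, Lcn6, Acan, Accsl, Aqp8, Grk1 and Olfr523. Alppl2, a placental-type alkaline phosphatase, had 480 reads over the mTEChi libraries (16.3 to 36.6 CPM) and 0 over the mTEClo libraries, so it was at least 211-fold higher when mTEClo is set to the limit of 3 reads. Cckar, the cholecystokinin A receptor, was at least 98.5-fold higher by the same limit. Ibsp, the bone sialoprotein, was at least 94.1-fold higher, and Trh, the thyrotropin-releasing hormone, at least 96.3-fold. Acan, the cartilage proteoglycan aggrecan, was at 58.3 against 0.375 CPM with a log2 change of 7.65 (SE 0.35). Photoreceptor genes were in the group as well. Grk1, rhodopsin kinase, had 539 against 3 reads, a ratio of 237 (95% counting interval 80.7 to 1153). Aipl1, a chaperone of the photoreceptor phosphodiesterase, had 501 against 2 reads, a ratio of 330.4 (91.0 to 2736). These intervals cover counting error only.

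Genes switched almost fully between the gates were far more numerous on the mTEChi side. Of the genes higher in mTEChi, 348 had 3 reads or fewer over all mTEClo libraries and 74 had none. Of the genes lower in mTEChi, 27 had 3 reads or fewer over all mTEChi libraries and 5 had none. When the higher gate had to average 5 CPM or more, the counts were 174 and 8, and the 8 included Tas2r102, Tas2r116, Tas2r106, Tas2r123, Tas2r110 and Pcdhb9. A gene can pass the filter on low counts through the gate where it is high, so these counts describe the table and support no comparison of their own.

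In CPM, which favours long and abundant transcripts, the largest rises were of Ttn, Sspo, Neat1, Ahcyl2, Aire and Dennd4a. Ttn, the giant sarcomere protein titin, was at 2527 against 868 CPM and Sspo, the brain ventricular protein SCO-spondin, at 2043 against 415 CPM. The noncoding RNA Neat1, the scaffold of nuclear paraspeckles, was at 2997 against 1878 CPM. The largest falls in CPM were of Dst, Flna, Rnf213, Lifr, Igfbp5 and Eppk1. Dst, Flna and Eppk1 encode cytoskeletal linkers, and were at 729 against 2249 CPM, 416 against 1929 CPM and 196 against 956 CPM.

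Most genes of the MHC class II pathway were higher in mTEChi. Of 19 listed genes, all tested, 16 were higher (against 36.7% of all genes) and 3 lower, with a median log2 change of 1.01 against 0.003 over all genes. The transcription of these genes depends on the coactivator CIITA and on factors bound at X and Y boxes before the gene, the Y box being bound by NF-Y. Of the 14 listed genes with a promoter window in RefSeq (build GRCm38.p6), 5 had the exact Y box letters CTGATTGG or their reverse complement within 250 bases before the start (35.7%, H2-Aa, H2-Eb1, H2-Eb2, H2-Oa and Tspan3), against 3.83% of all 32851 windows and 5.67% of the 13113 tested genes with any window. Stretches around it are shown for 3 genes because they carry the element shared by the group, in capitals, 5′ to 3′ on the gene's strand (chr17:34287827-34287914 on the minus strand, chr17:34305765-34305852 and chr17:34092293-34092378 on the plus strand). A match is a description and shows no binding.
H2-Aa: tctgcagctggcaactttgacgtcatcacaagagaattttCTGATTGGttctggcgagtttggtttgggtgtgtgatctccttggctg
H2-Eb1: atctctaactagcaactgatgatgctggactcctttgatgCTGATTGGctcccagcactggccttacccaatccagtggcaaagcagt
H2-Oa: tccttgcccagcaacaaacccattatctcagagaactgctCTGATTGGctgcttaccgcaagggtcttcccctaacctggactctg

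Ciita, the coactivator, was at 539 ± 82.3 CPM (SD, n = 7) in mTEChi and 269.6 ± 37.98 CPM (SD, n = 8) in mTEClo, a log2 change of 1.01 (SE 0.17), and Rfx5, a subunit of the X box factor, had a log2 change of 1.09 (SE 0.09). The other subunits Rfxap and Rfxank went the opposite way (-0.96 and -0.37), with the Rfxank call lost among 5-week and among male libraries alone. The classical chains H2-Aa, H2-Ab1 and H2-Eb1 and the invariant chain Cd74 had log2 changes of 0.83, 0.60, 0.68 and 0.57. These classical chains moved by less than 2-fold. For Cd74 the lowest mTEChi library (617 CPM) lay below the highest mTEClo library (694 CPM). The peptide-exchange chains H2-DMa, H2-DMb1 and H2-DMb2 changed by 0.84, 1.38 and 1.14. H2-Oa and H2-Ob, which form the inhibitor of that exchange, changed by 1.98 and 3.02, with H2-Ob at 116 to 147 CPM in mTEChi and 12.1 to 20.7 CPM in mTEClo. H2-Eb2, a nonclassical beta chain, was at 459.8 to 640.3 CPM and 43.3 to 72.3 CPM, a log2 change of 3.31 (SE 0.14). Among the 19 genes Cd83 had the largest fitted change. Cd83, which protects surface MHC class II from turnover, was at 41.4 to 62.8 CPM and 1.27 to 3.05 CPM, a log2 change of 4.79 (SE 0.17).

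The proteases of the pathway went in opposite directions. Ctss, the cathepsin that trims the invariant chain in most antigen-presenting cells, was at 126, 130.1 and 167 CPM in the lowest, median and highest mTEChi library and at 32.0, 39.7 and 56.3 CPM in mTEClo, a log2 change of 1.76 (SE 0.09). Ctsl, the cathepsin known for this role in cortical epithelium, was at 66.0, 74.2 and 91.1 CPM in mTEChi and 219, 258 and 319 CPM in mTEClo, a log2 change of -1.79 (SE 0.10). Neither gene overlapped between the gates. MHC class I presentation moved less, with 9 of 19 genes higher, 5 lower and a median log2 change of 0.22. The immunoproteasome subunit Psmb10 had its largest rise (94.1 against 47.0 CPM), while H2-K1 and H2-D1 did not pass the test (0.11 and 0.16) and the transactivator Nlrc5 was lower (347 against 496 CPM). The number lower was 2 under RLE, upper quartile or DESeq2 scaling and among male libraries.

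Markers of dendritic cells and macrophages, which also use this pathway, were higher in mTEChi too. Of 14 tested markers 13 were higher (92.9%, against 36.7% of all genes) and none lower. In mTEClo 9 of the 14 had a mean under 1 CPM, and such genes passed the filter through mTEChi. The 18 listed markers summed to 193 to 267 CPM in mTEChi libraries and 34.4 to 55.3 CPM in mTEClo libraries. Adgre1, which encodes F4/80, was at 37.2 against 0.806 CPM, Csf1r at 46.7 against 6.39 CPM and Batf3 at 9.65 against 0.292 CPM. Of 10 tested B cell markers 8 were higher, with Pax5 at 45.1 against 4.06 CPM, and of 10 tested thymocyte markers 8 were higher, with Cd4 at 26.5 against 1.72 CPM, and 2 lower, with Bcl11b at 25.9 against 47.0 CPM. No listed marker of dendritic cells and macrophages or of B cells was at 0 in both gates. Ptprc, shared by all of these cells, did not pass, as given above. The part of these cells in the differences of MHC class II and costimulation was not tested.

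The costimulation list holds ligands that thymocytes read on mTECs and genes that encode no ligand, such as Cd40 and Hvcn1. Most of its genes were higher in mTEChi. Of 17 listed costimulatory and inhibitory ligands and related genes 15 were tested. Of these 13 were higher (86.7%, against 36.7% of all genes) and 1 was lower, with a median log2 change of 2.213. Cd86, the other CD28 ligand, changed most, from 1.01, 1.39 and 2.44 CPM in the lowest, median and highest mTEClo library to 35.7, 52.8 and 61.0 CPM in mTEChi, a log2 change of 4.97 (SE 0.20). Cd70, the ligand of CD27, changed by 3.91 (SE 0.45), and its libraries overlapped, with the lowest mTEChi library at 2.48 CPM and the highest mTEClo library at 3.66 CPM. Some members of the TNF ligand and receptor families and B7 relatives were also higher. Tnfsf9, the 4-1BB ligand, was at 29.2 against 2.69 CPM, the receptor Cd40 at 179.7 against 38.8 CPM and Icosl, the ICOS ligand, at 384 against 78.2 CPM. Of the ligands of PD-1, Pdcd1lg2 was at 50.9 against 22.9 CPM and Cd274 at 232 against 159 CPM. Ctla4, the inhibitory counter-receptor usually found on T cells, was at 15.6 against 1.25 CPM. Lgals9, galectin-9, was the member that was lower, at 78.1 against 233 CPM (log2 change -1.58, SE 0.08), and Tnfsf18 did not pass (0.57).

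Signalling through RANK, CD40 and NF-kB, the pathway by which lymphoid cells drive mTEC maturation, was shifted by smaller amounts. Of 25 tested genes 17 were higher and 5 lower, with a median log2 change of 0.63. Tnfrsf11a, which encodes RANK, was at 534 against 344 CPM (log2 change 0.64, SE 0.13), and Tnfrsf11b, its soluble decoy osteoprotegerin, at 217 to 310.4 CPM against 46.2 to 80.1 CPM (log2 change 1.99, SE 0.12). Traf6 and Traf1, adaptors of these receptors, changed by 1.22 and 1.47. The NF-kB subunits split. Rel was at 231 against 66.3 CPM (log2 change 1.79, SE 0.10), Relb and Nfkb2 of the alternative pathway changed by 0.82 and 0.72, Nfkb1 by 0.14, and Rela was lower (-0.33). The calls for Nfkb1 and Rela were lost without the libraries under 2000000 reads. The receptors Ltbr, for lymphotoxin, and Tnfrsf1a, for TNF, were lower at 27.3 against 62.6 CPM and 45.9 against 105 CPM, as was the inhibitor Tnfaip3 at 113 against 238 CPM.

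Most chemokine and cytokine genes were higher in mTEChi. Of 30 tested genes 20 were higher (66.7%, against 36.7% of all genes) and 7 lower. Ccl22, a ligand of CCR4, was at 78.5, 124 and 182 CPM in the lowest, median and highest mTEChi library and 0.510, 1.94 and 10.9 CPM in mTEClo, a log2 change of 5.33 (SE 0.47). Ccl17, the other CCR4 ligand, was at 8.27 against 0.474 CPM, Ccl5 at 71.7 against 7.0 CPM, and Xcl1, known to place dendritic cells in the medulla, at 7.16 against 0.0375 CPM. The receptor Ccr7 was at 57.4 against 2.58 CPM and the scavenger Ackr2 at 23.2 against 0.508 CPM. Tnf was at 29.1 against 1.64 CPM and Il23a at 99.8 against 21.0 CPM. On the lower side, Ccl21a, the CCR7 ligand, was at 4.64, 8.39 and 9.91 CPM in mTEChi and 23.7, 28.1 and 40.8 CPM in mTEClo (log2 change -1.88, SE 0.19). Cxcl12 was at 12.5 against 55.7 CPM, Il7 at 114 against 273 CPM, and Ackr4, a scavenger of CCL21, at 9.99 against 40.3 CPM. Ccl21a has near-identical copies in the mouse genome, so its counts are uncertain. Ccl19 was at 0 in all 15 WT libraries and is given no value. It had reads in 6 KO libraries and was at 0 in the other 17, some KO libraries included. Its 0 thus follows a split between libraries that is given with the KO results, and does not show that WT cells lack it.

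Regulators of thymic epithelium were found on both sides. Of 32 tested genes 12 were higher in mTEChi (37.5%, near the 36.7% of all genes) and 16 lower (50.0%, against 33.4%). Of the 32, 10 were higher and 13 lower with no overlap between libraries, as were 24.8% and 19.5% of all genes. Beside Aire, the largest rises were of Dnmt3l, a partner of DNA methyltransferases, at 83.4 to 96.6 CPM against 0.765 to 6.89 CPM, and of Sirt1, the deacetylase known to act on AIRE, at 473 to 771 CPM against 66.7 to 94.8 CPM (log2 change 2.92, SE 0.10). Fezf2, which controls a separate set of tissue-restricted genes, was at 275 against 123 CPM (log2 change 1.17, SE 0.10), Foxn1, the thymic epithelial master factor, at 209 against 81.6 CPM, and Irf8 and Irf4 at 369.9 against 105 CPM and 265 against 58.3 CPM. Insm1, a zinc finger factor of neuroendocrine cells, was at 145 against 31.3 CPM. Factors of epithelial progenitors and of the pharyngeal pouch were lower. Trp63 was at 172 against 508 CPM (log2 change -1.56, SE 0.09), Eya1 at 77.7 against 363 CPM, Hoxa3 at 1.73 against 15.8 CPM, Pax1 at 57.7 against 117 CPM, Pax9 at 103 against 172 CPM and Sox9 at 98.6 against 228 CPM. Hipk2, Elf3 and Prdm1 did not pass the test (-0.17, 0.11 and 0.37).

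Proteins known to work with AIRE did not follow Aire itself. Of 23 genes, all tested, 4 were higher and 12 lower, with a median log2 change of -0.20. The higher ones were Sirt1, Top2a, Parp1 and Hexim1, the last of which lost its call in 8 of 37 alternatives. Among the lower ones, Xrcc5, the Ku80 subunit of the DNA break repair kinase, was at 18.4 to 27.0 CPM in mTEChi and 53.5 to 72.7 CPM in mTEClo (log2 change -1.52, SE 0.11), and Top2b, Atf7ip and Top1 changed by -0.72, -0.65 and -0.49. Mbd1, Chd6, Ccnt1 and Cdk9 were not called (0.01, 0.02, 0.11 and -0.17).

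**Figure D3:**
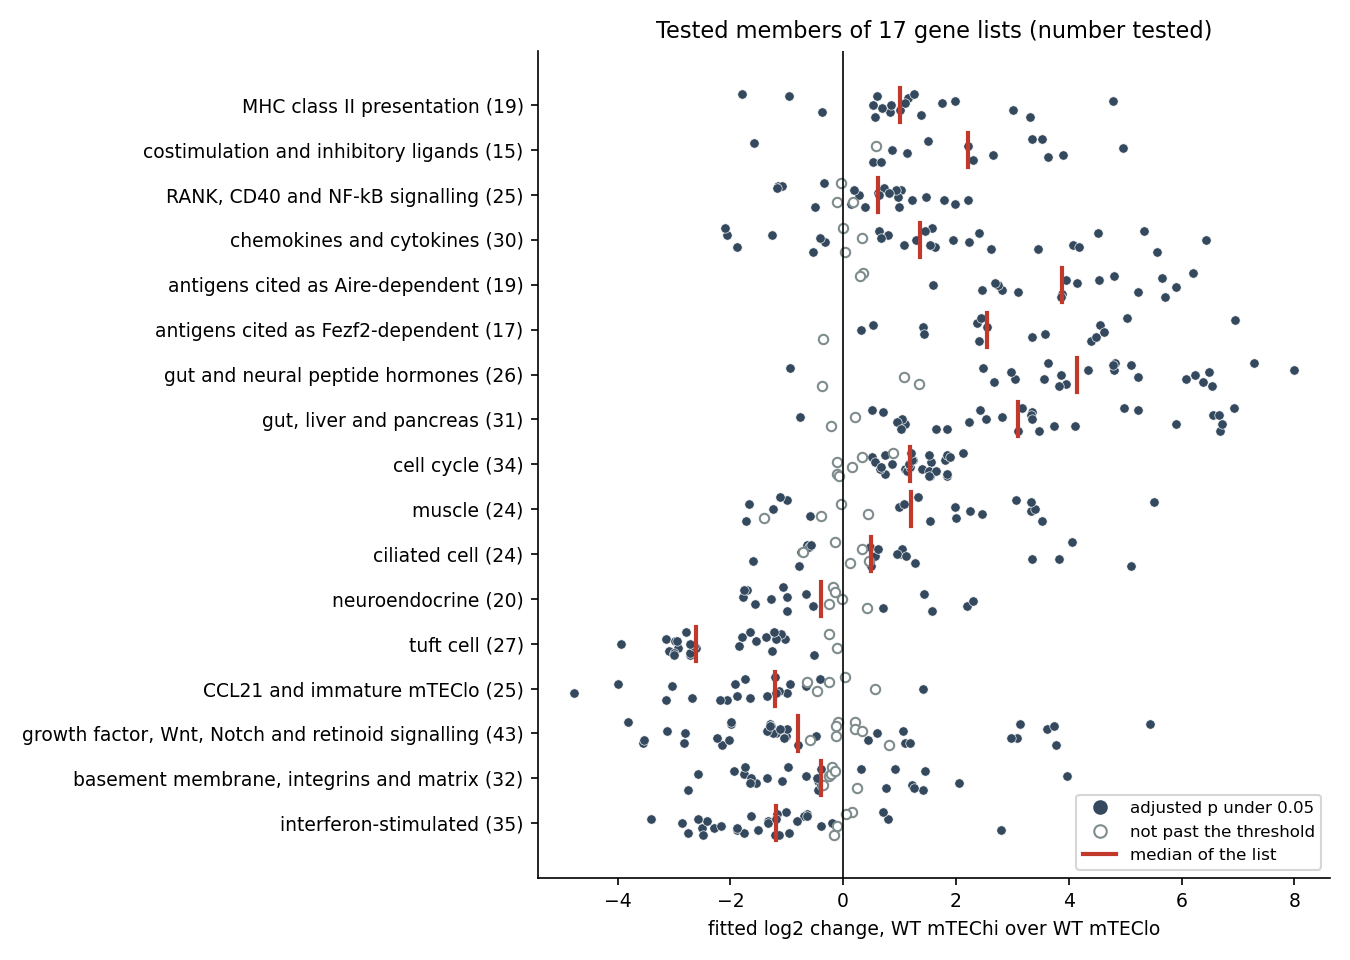
Fitted log2 change of mTEChi over mTEClo for each tested member of 17 gene lists, filled where the adjusted p was under 0.05 and open where not, with the median of each list as a bar and the number tested after its name. Peptide hormone and Aire-dependent antigen lists have the highest medians (4.15 and 3.88), and the tuft cell list the lowest (-2.61).

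Genes of peripheral tissues were higher in mTEChi across organs. Of 25 listed antigens often cited as Aire-dependent 19 were tested, and 17 were higher and none lower, with a median log2 change of 3.88. The other 6 had 55 reads or fewer over the mTEChi libraries. Ins2, insulin, was at 4.34, 10.4 and 15.8 CPM in the lowest, median and highest mTEChi library and 0, 0.277 and 1.15 CPM in mTEClo (log2 change 4.80, SE 0.42). Mucl2, a salivary gland protein, was at 27.2 against 1.73 CPM, Csn2, beta casein, at 410.0 against 56.7 CPM, and Crabp1 at 38.6 against 0.817 CPM. Spink1 and Reg3g did not pass (0.30 and 0.36). Of 17 antigens cited as Fezf2-dependent 16 were higher, with Apob at 333 against 15.4 CPM and Itih3 at 27.1 against 0.156 CPM, and Krt10 was not called (-0.35). Of 11 tested antigens cited as independent of Aire 7 were higher and 2 lower. Gad1 was at 79.1 against 8.26 CPM and Tg, thyroglobulin, at 54.8 against 1.29 CPM, whereas Crp, C-reactive protein, was lower at 12 to 19.5 CPM against 56.9 to 102 CPM (log2 change -2.45, SE 0.15). A gene near 0 in mTEClo passed the filter through mTEChi alone, so these counts describe the lists and support nothing by themselves.

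Peptide hormones were mostly higher in mTEChi. Of 29 listed gut, pancreatic and neural peptide hormone genes 26 were tested, 22 were higher (84.6%, against 36.7% of all genes) and 1 was lower. Every mTEChi library lay above every mTEClo library for 21, as for 24.8% of all genes. In mTEClo 13 of the 26 had a mean under 1 CPM. Such genes passed the filter through mTEChi, so these counts describe the list and support nothing by themselves. Nts, neurotensin, was at 40.8, 45.7 and 61.8 CPM in mTEChi and 0, 0.542 and 1.22 CPM in mTEClo (log2 change 6.48, SE 0.25). Pomc, the precursor of corticotropin, was at 57.0 against 2.13 CPM, Gal, galanin, at 42.8 against 1.38 CPM, Gip, the incretin of the upper gut, at 18.8 against 0.486 CPM, and Calca, the precursor of calcitonin, at 83.5 against 3.95 CPM. Crh and Avp had no reads in mTEClo and were at least 29.9-fold and at least 33.4-fold higher. Ghrl, ghrelin, was the member that was lower, at 5.95 against 11.9 CPM, and it was not called among 5-week libraries alone (log2 change -0.54). Gcg, glucagon, and Sst, somatostatin, did not pass, and their mTEClo libraries were scattered. Gcg was at 57.6 CPM in mTEClo replicate 3 and between 0 and 8.15 CPM in the other 7, while mTEChi stayed between 12.4 and 31.0 CPM.

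Of 31 tested genes of gut, liver and pancreas 28 were higher in mTEChi (90.3%, against 36.7% of all genes), 1 was lower and 2 did not pass. Members near 0 in mTEClo passed the filter through mTEChi. Products of the liver were near 0 in mTEClo. Alb, albumin, was at 20.7 against 0.265 CPM (log2 change 6.55, SE 0.36), Fgb, fibrinogen beta, at 26.2 against 0.337 CPM and Afp at 13.0 against 0.0646 CPM. Pnlip, pancreatic lipase, had no reads in mTEClo and was at least 44.4-fold higher. The transcription factors behind these programmes moved less or not alike. Cdx1 was at 106 against 18.7 CPM, Hnf4g and Hnf4a at 72.2 against 20.3 CPM and 14.8 against 7.19 CPM, while Foxa2 was lower (5.41 against 9.26 CPM), a call lost among 5-week and among male libraries alone, and Foxa3 did not pass (-0.21). Muc2, the goblet cell mucin, was at 86.4 to 140.3 CPM in mTEChi. In mTEClo it was at 101 CPM in replicate 1, 26.2 CPM in replicate 6 and between 1.05 and 5.72 CPM in the rest, a log2 change of 3.10 (SE 0.62) that DESeq2 did not call.

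Other tissues followed the same direction to differing degrees. Of 14 tested salivary, lacrimal and milk genes 12 were higher and none lower, with the casein Csn1s2a at 36.2 against 0.376 CPM. Of 23 tested genes of retina, brain and myelin 18 were higher and 3 lower, with Cryaa, the lens alpha crystallin, at 20.5 against 0.444 CPM, and Snap25, a synaptic fusion protein, lower at 11.1 against 38.02 CPM. Of 23 tested lung and airway genes 13 were higher and 5 lower. Within it, Muc5ac was higher (328 against 79.1 CPM) and Cyp2f2, a club cell cytochrome, lower (23.5 against 127 CPM). Muc5b was at 52.1 against 215 CPM, a call that was lost among 5-week libraries alone (log2 change -0.53) and without the libraries under 2000000 reads (-1.59). Of 28 listed genes of testis, prostate and seminal vesicle only 10 were tested, and 7 were higher. In mTEClo 6 of these 10 and 7 of the 14 salivary, lacrimal and milk genes had a mean under 1 CPM. Such genes passed the filter through mTEChi, so these counts describe the lists and support nothing by themselves.

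Most tested coding members of the kallikrein and homeobox families were higher in mTEChi (83.3% and 84.6%, against 36.7% of all genes). The kallikrein serine proteases lie together on chromosome 7. Of 24 tested coding genes of 27 annotated, 20 were higher in mTEChi and none lower, and the tested members with the pseudogene Klk2-ps summed to 446 to 609 CPM in mTEChi and 73.9 to 181 CPM in mTEClo. Klk1b26, Klk4 and Klk1b9 were at 34.4 against 0.939 CPM, 34.1 against 0.479 CPM and 25.5 against 0.773 CPM, while Klk11, Klk13, Klk10 and Klk1 were not called. The Klk1b genes are close copies of each other, so reads may be split among them. Of the homeobox genes that pattern the body axis, 13 of 39 were tested and 11 were higher, such as Hoxc11 (20.6 against 1.75 CPM) and Hoxb9 (11.7 against 0.834 CPM). The remaining tested members, Hoxa2 and Hoxa3, which pattern the head and pharynx, were lower (1.06 against 12 CPM and 1.73 against 15.8 CPM). In mTEClo 12 of the 25 tested kallikrein entries and 3 of the 13 homeobox genes had a mean under 1 CPM. Such genes passed the filter through mTEChi, so these counts describe the families and support nothing by themselves. These families were looked at after the values of all genes had been seen.

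The deepest falls were of the bitter taste receptors, the G protein-coupled receptors by which tuft and taste cells sense bitter compounds. Among named genes with at least 5 CPM in mTEClo and no overlap, 11 of the 12 largest falls were of this family, with Tas2r102, Tas2r106, Tas2r105 and Tas2r116 at the head, and the remaining one was Pcdhb9. Of 35 annotated coding Tas2r genes 26 were tested and all 26 were lower in mTEChi, at a median log2 change of -5.01. With the genes at 0 set to their limit the median was -4.87. In 25 of them every mTEClo library was above every mTEChi library, as in 19.5% of all genes. In mTEChi 24 of the 26 had a mean under 1 CPM. Such genes passed the filter through mTEClo, where they are high, so these counts describe the family and support nothing by themselves. The 9 genes below the filter summed to 197 reads in mTEClo and 17 in mTEChi. Tas2r105 was at 22.4, 30.1 and 37.2 CPM in the lowest, median and highest mTEClo library and 0, 0 and 1.50 CPM in mTEChi (log2 change -6.14, SE 0.30). Tas2r102 had 350 reads in mTEClo and 1 in mTEChi, a ratio of 265 (95% counting interval 47.3 to 10509.8). Tas2r106, Tas2r125 and Tas2r120 had no reads in mTEChi. Against the limit of 3 reads, Tas2r106 was at least 35.9-fold lower, Tas2r125 at least 30.3-fold and Tas2r120 at least 28.0-fold. Summed over the 26 genes, the mTEClo libraries held 220.0 to 418 CPM and the mTEChi libraries 7.85 to 16.8 CPM.

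All 26 genes lie on chromosome 6 (GRCm38, annotation of GENCODE M21). Tas2r118 stands alone at 23969161 to 23970060, 5 genes lie between 40491233 and 42435464, and 20 between 131659118 and 133055816. Tas2r108 and Tas2r137, of the group of 5, kept the most in mTEChi, at 1.80 to 4.28 CPM and 1.20 to 4.34 CPM. Tuft cells depend on POU2F3, a factor of the family that binds the octamer ATGCAAAT. Within 250 bases before the start, 6 of the 22 tested Tas2r genes with a RefSeq window had the octamer on either strand (27.3%), against 1.6% of all windows and 1.71% of tested genes with any window, and 2 of 20 tuft cell genes had it. The 6 were Tas2r108, Tas2r118, Tas2r126, Tas2r137, Tas2r107 and Tas2r135. Stretches from 3 of them are shown because these genes, from separate places on the chromosome or adjacent, hold the same letters, in capitals, written 5′ to 3′ on the gene's strand in build GRCm38.p6 (chr6:23970137-23970224 on the minus strand, chr6:40493406-40493493 and chr6:40491006-40491093 on the plus strand).
Tas2r118: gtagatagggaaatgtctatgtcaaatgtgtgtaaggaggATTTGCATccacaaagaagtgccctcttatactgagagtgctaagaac
Tas2r108: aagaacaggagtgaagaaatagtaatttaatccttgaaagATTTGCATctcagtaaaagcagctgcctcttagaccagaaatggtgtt
Tas2r137: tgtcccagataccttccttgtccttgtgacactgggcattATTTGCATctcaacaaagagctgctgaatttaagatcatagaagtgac

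**Figure D4:**
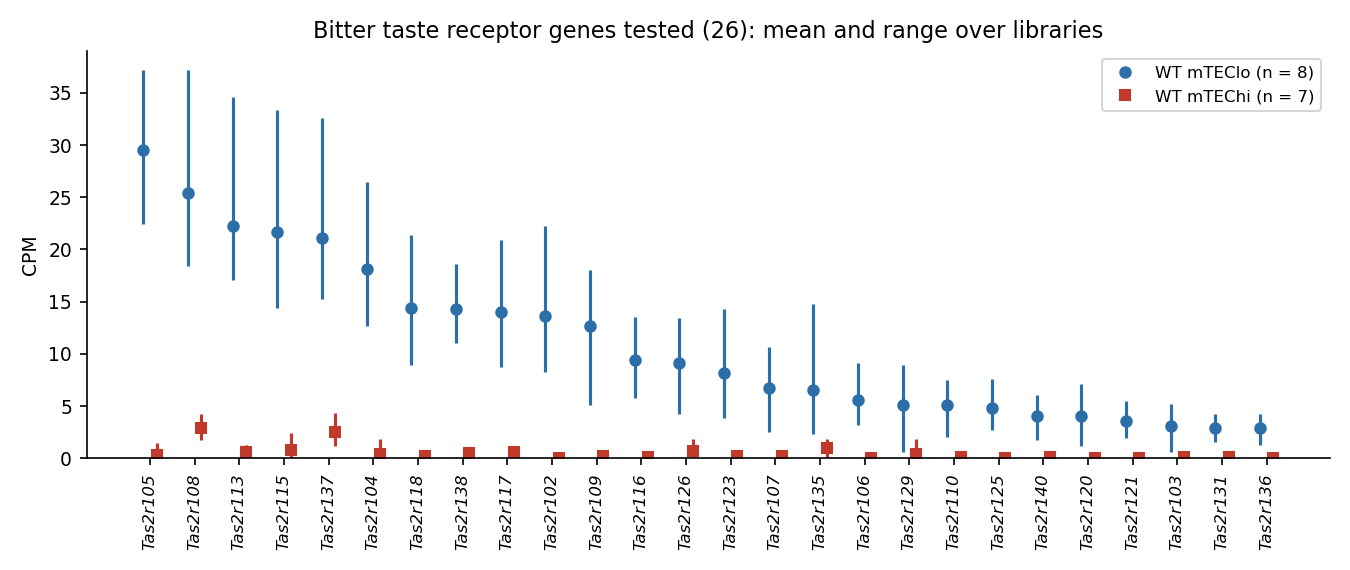
Mean (symbol) and range over libraries (line) in CPM of the 26 tested bitter taste receptor genes in mTEClo (circles, n = 8) and mTEChi (squares, n = 7), ordered by the mTEClo mean. Every gene is lower in mTEChi, and only for Tas2r129 do the ranges meet.

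The rest of the tuft cell programme was lower as well. Of 27 tested genes 25 were lower (92.6%, against 33.4% of all genes) and none higher, with a median log2 change of -2.61. Of the 27, 24 were lower with no overlap between libraries, as were 19.5% of all genes. The transduction chain behind the receptors included Plcb2 at 38.9 to 60.0 CPM against 337 to 451 CPM (log2 change -3.00, SE 0.11), the channel Trpm5 at 49.5 to 98.2 CPM against 453 to 688 CPM (log2 change -2.95, SE 0.14), and Gnb3 at 23.1 against 154 CPM. Dclk1, the usual tuft cell marker, was at 80.9 against 635 CPM, and Avil, advillin, at 59.2 against 359 CPM. The effectors Alox5ap and Alox5, of leukotriene synthesis, were at 3.60 against 32.7 CPM and 29.6 against 189.9 CPM, Chat, of acetylcholine synthesis, at 11.1 against 77.6 CPM, and Il25 at 0.355 against 3.68 CPM. Pou2f3 itself differed less, at 45.1 against 114 CPM (log2 change -1.37, SE 0.15), and Gfi1b and Sucnr1 did not pass (-0.26 and -0.10). The sweet and umami receptor genes Tas1r3 and Tas1r1 were lower too, with log2 changes of -1.23 (SE 0.12) and -1.43 (SE 0.20).

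Programmes of other peripheral cell types did not share one direction. Of 24 tested muscle genes 14 were higher and 6 lower. Among the higher were isoforms of embryonic and slow muscle, with Myh3 at 100.3 against 2.208 CPM, Tnni1 at 20.1 against 1.99 CPM and Myh7 at 17 against 1.53 CPM, whereas Acta1, Myl1, Musk and the muscle factor Myog were lower, Myog at 12.3 against 27.4 CPM. Of 24 tested ciliated cell genes 13 were higher and 6 lower. Early factors of multiciliated cells rose, Gmnc at 14.9 to 28.7 CPM against 0 to 1.72 CPM, Mcidas at 39.9 against 2.72 CPM and Ccno at 23.2 against 2.31 CPM, while Foxj1 was at 47.5 against 33.4 CPM, a call lost in the replicate block and without any of 5 single libraries, and the dynein Dnah11 was lower at 38.4 against 118 CPM. Of 20 tested neuroendocrine genes 5 were higher and 10 lower, with Insm1 and Resp18 higher and Isl1, Chgb and Snap25 lower. Of 16 tested ionocyte genes 10 were higher and 5 lower. Slc26a4, the anion exchanger pendrin, was at 33.4 against 2.87 CPM and Ascl3, was lower at 0.588 against 3.93 CPM.

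Of 31 tested keratinocyte genes 13 were higher (41.9%, near the 36.7% of all genes), 6 lower (19.4%, against 33.4%) and 12 not called. Sprr3 and Sprr1b, of the cornified envelope, were at 8.28 against 0.0375 CPM and 12.4 against 0.929 CPM, while Krt1, Krt10, Lor and Ivl were not called (-0.39, -0.35, -0.03 and 0.06). Of 16 tested microfold cell genes 6 were higher (37.5%, near the 36.7% of all genes) and 3 lower (18.8%, against 33.4%). Gp2, the receptor that marks mature microfold cells, was lower at 96.9 against 207 CPM and Spib did not pass (0.18).

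Genes of immature mTECs were lower in mTEChi. Of 25 tested genes 19 were lower and 1, Col17a1, was higher (138 against 51.4 CPM). Gas1, a hedgehog co-receptor, was at 2.48, 3.93 and 10.9 CPM in the lowest, median and highest mTEChi library and 120.4, 151 and 186 CPM in mTEClo (log2 change -4.77, SE 0.23). Fst, the activin antagonist follistatin, was at 6.74 against 103 CPM, the chemokine Ccl11 at 8.08 against 69.2 CPM, Pdpn, podoplanin, at 11.8 against 54.7 CPM, and the basal keratins Krt5 and Krt14 at 185 against 582 CPM and 102 against 341 CPM. Krt15, Ltf and Il33 did not pass (0.56, -0.64 and 0.04).

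Among genes of gp130 signalling, gp130 itself and the receptors Osmr and Lifr were lower in mTEChi, while Cntfr, Il27ra and the ligand Lif were higher. Il6st, gp130 itself, was at 139.9, 163 and 170.4 CPM in the lowest, median and highest mTEChi library and 755, 807 and 863 CPM in mTEClo (log2 change -2.35, SE 0.07, adjusted p 5.55e-22 in edgeR). Osmr, the oncostatin M receptor, was at 97.2 against 546 CPM (log2 change -2.48, SE 0.08) and Lifr is given above. Lif was at 27.9 against 9.66 CPM, Cntfr at 8.32 against 0.840 CPM and Il27ra, which also pairs with gp130, at 14.7 against 1.33 CPM. Downstream, Jak1 and Jak2 did not pass (0.01 and 0.03), Stat3 was higher (634 against 510.3 CPM), Socs3 lower (42.1 against 76.7 CPM) and Socs1 higher (51.8 against 19.0 CPM). Over the 20 tested genes of this list 8 were higher and 8 lower.

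Genes of growth factor, Wnt, Notch and retinoid signalling went both ways. Of 43 tested 23 were lower (53.5%, against 33.4% of all genes) and 12 higher. Fgfr2, whose IIIb form is the receptor for FGF7 and FGF10, was at 19.8, 28.7 and 40.8 CPM in mTEChi and 370.1, 421 and 468 CPM in mTEClo (log2 change -3.81, SE 0.09). Egfr was at 95.8 against 428 CPM, the BMP target Id1 at 4.75 against 57.9 CPM, Jag2 at 38.8 against 282 CPM, and Notch3 and the Notch targets Hey1 and Hes1 at 37.3 against 181 CPM, 6.34 against 47.0 CPM and 8.29 against 33.8 CPM. On the mTEChi side, the retinoid genes Stra6, the receptor for retinol-binding protein, and Aldh1a2, of retinoic acid synthesis, were at 168 against 19.3 CPM and 19.5 against 1.82 CPM, and Igf1 was at 232 against 17.5 CPM. Dll4, a Notch ligand, was higher in mTEChi at 77.9 against 13.2 CPM.

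Genes of attachment to matrix and to neighbouring cells went both ways. Of 32 tested basement membrane, integrin and matrix genes 17 were lower (53.1%, against 33.4% of all genes) and 9 higher. The laminin chains Lamb1 and Lamb3 were at 58.8 to 86.1 CPM against 458 to 535 CPM and 46.5 against 283 CPM, the collagen IV chains Col4a1 and Col4a2 at 181 against 536 CPM and 119 against 399 CPM, and the hemidesmosome integrin chain Itgb4 at 250.4 against 648 CPM. Nid1, nidogen, went the other way, at 81.8 to 181 CPM against 3.69 to 13.4 CPM (log2 change 3.97, SE 0.23), as did Fn1, fibronectin, at 603 against 220.1 CPM. Of 30 tested junction genes 10 were higher and 13 lower, with a median log2 change of -0.10. The tight junction genes Cldn4, Cldn7 and Ocln were higher (123 against 38.7 CPM, 67.1 against 28.2 CPM and 86.8 against 43.1 CPM), and Cdh3 and Dsc3 of adherens junctions and desmosomes were lower (50.4 against 251 CPM and 77.2 against 288 CPM). Of 13 tested fibroblast markers 7 were higher and 4 lower. Among them Col6a1 was lower (52.4 against 535 CPM) and Col1a1 and Col6a3 higher (116 against 4.88 CPM and 102 against 1.00 CPM), and the 14 listed markers summed to 478 to 709 CPM in mTEChi and 986 to 1344 CPM in mTEClo, of which Col6a1 and Fbn1, fibrillin-1 (103 against 530.0 CPM), made up the largest parts in mTEClo. Their part in the matrix genes was not tested.

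The clustered protocadherins, cell recognition molecules read from neighbouring promoters in the genome, were lower as a block. All 14 tested Pcdhb genes and all 20 tested coding Pcdhg genes were lower in mTEChi, with median log2 changes of -2.25 for Pcdhb and -1.73 for the 21 tested Pcdhg entries with 1 pseudogene. The Pcdhb entries summed to 34.3 to 55.6 CPM in mTEChi and 178 to 252 CPM in mTEClo. Pcdhg transcripts share exons, so reads may be exchanged among them. Zinc finger genes named Zfp were lower in 207 of 338 tested (61.2%) and higher in 33 (9.76%), with a median log2 change of -0.43. These families, too, were looked at after the values had been seen.

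Interferon-stimulated genes were lower in mTEChi with few exceptions. Of 35 genes, all tested, 28 were lower (80.0%, against 33.4% of all genes) and 3 higher, with a median log2 change of -1.18. Of the lower ones 27 did not overlap between libraries, against 19.5% of all genes. Many such genes are switched on through interferon response elements in their promoters. Of 24 listed genes with a RefSeq window 15 had the core of that element (TTTC, then 2 bases of any kind, then TTTC) on either strand within 250 bases before the start (62.5%), against 2.98% of all windows and 3.30% of tested genes with any window. They included Ifit1, Ifit3, Stat2, Isg15, Rsad2, Oas1a and Cxcl10. The stretches of 3 are shown since they carry the element in genes that differed by unlike amounts, in capitals, 5′ to 3′ on the plus strand of GRCm38.p6 (chr19:34640745-34640853, chr19:34583333-34583456 and chr10:128270248-128270325). Ifit1 and Ifit3 hold it at 2 places and Stat2 at 1.
Ifit1: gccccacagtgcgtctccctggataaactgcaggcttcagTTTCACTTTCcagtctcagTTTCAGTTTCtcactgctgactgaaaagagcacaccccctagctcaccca
Ifit3: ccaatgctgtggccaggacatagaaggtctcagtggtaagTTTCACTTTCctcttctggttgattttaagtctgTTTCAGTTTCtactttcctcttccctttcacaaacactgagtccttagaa
Stat2: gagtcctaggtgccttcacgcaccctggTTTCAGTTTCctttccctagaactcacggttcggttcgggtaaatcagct

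Ifit3, an interferon-induced antiviral protein, was at 7.43, 11.5 and 17.1 CPM in the lowest, median and highest mTEChi library and 66.4, 75.1 and 92.9 CPM in mTEClo (log2 change -2.57, SE 0.15). Ifit1, which lies near it on chromosome 19 and holds the same element, was at 111, 118 and 144 CPM and 145, 161 and 180.2 CPM (log2 change -0.39, SE 0.11), a call lost among male libraries alone. Stat2 was at 110.1 against 341 CPM (log2 change -1.63, SE 0.07). Oas2, an RNA sensor, had the largest fall, at 6.20 to 18.7 CPM against 106 to 162 CPM (log2 change -3.41, SE 0.15), and Rtp4 was at 18.7 against 137 CPM and Ifi44 at 36.7 against 248 CPM. The sensor Ddx58, which encodes RIG-I, was at 61.0 against 342 CPM and the factor Irf7 at 64.8 against 241 CPM. The members that were higher were the GTPase Gbp4 (259 against 37.6 CPM), the chemokine Cxcl10 (215 against 125 CPM) and Oasl1 (88.0 against 54.9 CPM). Usp18, Rsad2, Ifit2 and Igtp did not pass (-0.10, 0.05, -0.17 and 0.16).

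Cell cycle genes were higher in mTEChi. Of 34 genes, all tested, 28 were higher (82.4%, against 36.7% of all genes) and none lower, with a median log2 change of 1.18. Mki67, the proliferation antigen Ki-67, was at 169, 253 and 322 CPM in the lowest, median and highest mTEChi library and 71.3, 108 and 143 CPM in mTEClo (log2 change 1.21, SE 0.35), and among male libraries alone it was not called. Genes of mitosis, such as Bub1 (24.7 against 5.87 CPM), Tpx2 (64.9 against 17.4 CPM), Cdk1 (45.2 against 12.6 CPM) and Ccnb1 (10.8 against 2.99 CPM), passed the test, and the replication licensing genes Mcm2, Mcm3, Mcm5 and Mcm6 did not (-0.11, 0.33, 0.16 and -0.08). Immediate early genes split, with Jun and Fos lower (55.3 against 163 CPM and 44.2 against 91.4 CPM) and Gadd45b and Zfp36 higher (105 against 26.7 CPM and 117 against 56.3 CPM). Mitochondrially encoded transcripts took 0.362% of reads in mTEChi and 0.318% in mTEClo (exact permutation p = 0.397). Of 13 listed mitochondrial coding genes 5 were at 0 in all WT libraries (mt-Nd4l, mt-Co2, mt-Co3, mt-Atp6 and mt-Atp8). These shares therefore leave out part of the mitochondrial transcripts and do not give the mitochondrial content of the cells.

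Markers of endothelium and cortical epithelium were present at low to moderate levels and moved unevenly. Of 9 tested endothelial markers 7 were higher in mTEChi and 1 lower, with Cdh5 at 6.53 against 0.0375 CPM and Pecam1 at 21.8 against 3.73 CPM. Of 16 cortical markers 8 were higher and 4 lower. Psmb11 and Prss16, which define cortical epithelium, did not pass (6.22 against 4.92 CPM and 32.1 against 39.6 CPM), and Ccl25 and Tbata were higher (209 against 53.5 CPM and 268 against 53.6 CPM).

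The same gate comparison in Aire KO mice separated differences that were seen in both genotypes from those seen in WT. The knockout label was checked first. Aire was at 17.1 to 39.3 CPM in the 4 KO mTEChi libraries and 0 to 7.58 CPM in the 4 KO mTEClo libraries, against 753 to 921 CPM in WT mTEChi. In 6 of the KO libraries, 11 mitochondrially encoded genes and Med10 were at 0 although all 17 other libraries had reads. These 6 were all 4 of mTEChi and replicates 3 and 4 of mTEClo. Another 8 genes, among them Ccl19, had reads in those 6 and were at 0 in the other 17. These files thus differ in a way the labels do not give. In KO 5630 genes were higher in mTEChi (29.2%) and 5409 lower (28.0%), 57.2% in all. Over 4-fold they were 1832 (9.49%) and 1627 (8.43%). The gate difference itself differed between genotypes for 4792 genes (24.8%), with 2699 above (14.0%) and 2093 below 0 (10.8%) for WT minus KO. With upper quartile scaling the split was 3169 and 1441. Of the 2811 genes over 4-fold higher in WT mTEChi 61.4% were also higher in KO, and for 28.0% the WT difference was the larger one by the test. Of the 689 over 4-fold lower 97.2% were also lower in KO, and for 25.1% the WT difference was the smaller one.

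Among the 26 tested peptide hormone genes 6 were higher and 5 lower in KO mTEChi. Of the 22 higher in WT mTEChi, 13 were not called in KO, as were 32.4% of all genes higher in WT mTEChi. The signed log2 gate difference was greater in WT than in KO for 8 of the 26 by the test, against 14.0% of all genes. A missing call in KO does not show that the gates were alike there. Pomc had a log2 change of 4.79 in WT and 1.25 in KO (difference 3.54, adjusted p 1.06e-04 in edgeR). Tac1, the substance P precursor, had 3.83 in WT and -2.75 in KO (difference 6.58). Genes with no reads in either KO gate cannot be tested this way. In the muscle list the signed difference was greater in WT for 16 of 24 genes, such as Myh3 (5.52 and -0.55) and Neb (1.99 and 0.43). In KO mTEChi 8 of the 24 were lower, so a greater signed value need not be a larger gate difference. Among the Klk genes the signed difference was greater in WT for 12 of 25 and smaller for none.

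Costimulation and class II genes were mostly higher in KO mTEChi too. Of the costimulation list 12 of 15 were higher there, and the signed gate difference was greater in WT for 3 and smaller for 3. Cd86 had a log2 change of 4.97 in WT and 5.02 in KO, with no difference past the threshold (-0.05), while Cd80 had 3.35 and 2.43 (difference 0.92, adjusted p 0.00939 in edgeR). With a term for the 6 KO libraries, which in KO mTEClo also splits age and depth, that difference was 0.35 and not called. Of class II genes 15 were higher in KO. H2-Eb2 and Cd83 differed more in WT (3.31 and 2.14, and 4.79 and 3.48), and Ctsl was lower in both, by more in KO (-1.79 and -3.41). In the NF-kB list the signed difference was smaller in WT for 9 of 25 genes, among them Traf1 (1.47 and 2.68) and Map3k14 (0.27 and 1.10).

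The tuft cell difference was present in KO as well. All 27 tested tuft cell genes were lower in KO mTEChi. By the test 10 of them fell less and 2 fell more in WT, with Dclk1 at -2.98 in WT and -4.19 in KO. All 26 bitter receptor genes were lower in KO too, and they summed to 5.32 to 10.6 CPM in KO mTEChi and 224 to 473 CPM in KO mTEClo. The number whose gate difference differed between genotypes was 0 in edgeR, 0 at an unadjusted p under 0.05 and 0 in DESeq2. In WT mTEChi 24 of the 26 had a mean under 1 CPM and 3 had no reads. At this level a difference between genotypes could go unseen, so these counts do not show that the gate difference was alike. Of the immature mTEClo list 23 of 25 were lower in KO, and Krt15 and Il33, not called in WT, were at -3.31 and -6.00 in KO. Enpep was higher in WT mTEChi (2.96) and lower in KO mTEChi (-1.67).

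The genes whose gate difference departed most between genotypes, by the smallest p with at least 5 CPM, were named by rule. Above 0 these were Sparc, Fbln2, Nrxn3, Ucma and Myof. Sparc, a matrix glycoprotein, had a log2 change of -0.46 in WT and -5.62 in KO, with 1.67 to 3.77 CPM in KO mTEChi and 99.1 to 140.1 CPM in KO mTEClo against 67.5 to 92.1 CPM and 88.4 to 128 CPM in WT. Fbln2, fibulin-2, changed by 1.25 in WT, and in KO it was at 0 to 0.818 CPM in mTEChi and 33.0 to 46.6 CPM in mTEClo. Nrxn3, a synaptic adhesion protein, had 1.70 in WT and -4.23 in KO. Below 0 were Lrp1b, Cxcl16, Ptpn14, Atxn1 and Ltbp2. Lrp1b, a lipoprotein receptor relative, had -0.41 in WT and 2.60 in KO, and Cxcl16 -0.41 and 0.98. All 4 KO mTEChi libraries belong to the 6 with mitochondrial genes at 0, so in KO the gate and that split overlap. A term for those 6 libraries rests on the KO mTEClo libraries of both kinds. There replicates 1 and 2 were also 5 weeks old and under 2000000 reads, and replicates 3 and 4 were 6 weeks old and above it. The term therefore cannot be told apart from age or depth. With it, the WT minus KO differences were 5.32 for Sparc, 8.45 for Fbln2, 5.98 for Nrxn3, -3.01 for Lrp1b and -1.34 for Cxcl16, and these 5 stayed past the threshold.

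**Figure D5:**
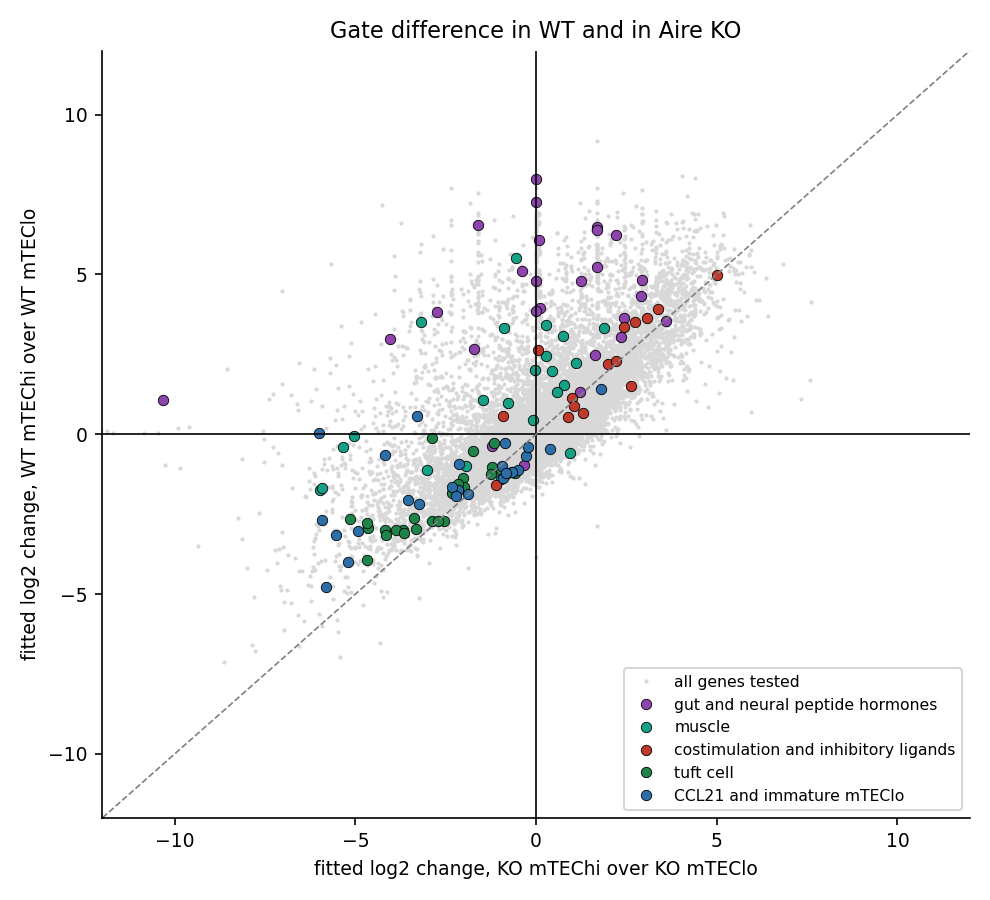
Fitted log2 change of mTEChi over mTEClo in KO (x axis) and in WT (y axis) for the 19310 genes tested in grey, with members of 5 gene lists coloured and equal change as a dashed line. Tuft cell genes lie below 0 on both axes, and many peptide hormone genes lie high at a KO value near 0, where columns of points come from genes with few or no reads in KO.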

How the data were processed

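Bulk RNA-seq libraries (reverse transcribed from not-so-random and oligo-dT primers, cut with Tn5 transposase, unstranded) of sorted mTECs were compared. The deposited table holds raw counts of reads per gene for 23 libraries and 53402 identifiers, all matched to GENCODE M21 names. The deposited normalized values are a signal, the count divided by 1 factor per library, used in 1 alternative only. Per the submitters' processing notes the authors used edgeR, HTSeq 0.11.2, STAR 2.7.3a, fastp 0.20.0, Picard 2.21.1 and SAMtools 1.9 with builds mm10 and GRCm38. Which step each made, and how reads shared by copies or overlapping genes were counted, is not given in the sources used here.

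Counts were filtered by expression within groups (minimum count 10), scaled by TMM and fitted with edgeR 4.0.16 in R 4.3.3 (limma 3.58.1 and DESeq2 1.42.0 in alternatives), by group and sex. On data simulated for the WT comparison over 18195 genes, 99 were changed 2-fold and 97 were changed 4-fold, and 68.7% and 100% of these were recovered. Of the genes called there, 6.78% had not been changed. In the data 70.1% of genes were called, so the simulation differs from them and its shares may not carry over. Deviations of KO libraries with the same replicate number correlated at 0.145 to 0.238 over 4 pairs, with 2 of 4 mTEChi libraries closest to their own number. In both KO gates replicates 1 and 2 were 5 weeks and replicates 3 and 4 were 6 weeks old. A shared number thus went with a shared age, and pairing by number is not shown. The block changed no KO count by over 1.5 times. Gene lists, families and members were chosen with earlier results of these data known. Genes named in each comparison are the 4 markers, the 12 largest rises and falls, the 6 largest CPM differences each way, tested members of the lists on MHC class II, costimulation, NF-kB, regulators, immature mTEClo, tuft, gp130 and sort markers, the 3 smallest p in each other list and the 5 smallest p each way for the difference between genotypes. Other list and family members were named after their values were seen. A few genes that this rule takes in are not reported here. Alternatives varied scaling, filter, tool, covariates, thresholds and libraries. Intervals and the limit of 3 reads cover counting error only.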

Additional observations from a re-analysis of the deposited data

Results flagged for a closer look

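In 49 of 680 pairs of a gene named in the report and a group of libraries (7.21%), 1 library lay apart from the rest by Dixon's criterion. For normally spread values chance alone gives about 1 in 20. Several flagged genes were near 0 CPM, where a few reads set a library apart, such as Sprr3 at 0.300 CPM against 0. The 7.21% is therefore not to be read against that share. Values are CPM of that library against the range of the others in its group. Replicate 1 of WT mTEClo accounted for 13 of them and was the highest library each time. Tissue-restricted and mTEChi-side genes among these were Acan at 1.72 CPM against 0 to 0.636, Ctss at 56.3 CPM against 32.0 to 42.0, Zfp36 at 75.2 CPM against 45.4 to 56.8, Fgb at 1.72 CPM against 0 to 0.636, Muc2 at 101 CPM against 1.05 to 26.2, Dll4 at 25.3 CPM against 10.2 to 13.1, Klk4 at 2.30 CPM against 0 to 0.672, Hoxb9 at 2.87 CPM against 0 to 1.01, Klk1b9 at 3.45 CPM against 0 to 1.02 and Klk2-ps at 5.17 CPM against 0 to 1.22. The others were Cdk9 at 55.1 CPM against 40.9 to 46.8, Foxa3 at 9.77 CPM against 2.54 to 5.35 and Psmb11 at 14.4 CPM against 2.02 to 6.63. Aire in this library was at 82.1 CPM, within the range of the other mTEClo libraries. The library held 1804090 counted reads. In WT mTEClo replicate 2, it was Tspan3 at 147 CPM against 113 to 127 and Mcm6 at 83.9 CPM against 55.7 to 68.2. In WT mTEClo replicate 3, it was Gcg at 57.6 CPM against 0 to 8.14 and Prss16 at 48.2 CPM against 35.9 to 40.8. In WT mTEClo replicate 5, it was Chat at 111 CPM against 61.8 to 84.5, Isl1 at 78.4 CPM against 98.2 to 107, Hnf4g at 34.9 CPM against 15.3 to 22.9, Tas2r108 at 37.2 CPM against 18.4 to 27.2 and Tas2r135 at 14.8 CPM against 2.30 to 7.39. In WT mTEClo replicate 6, it was Itih3 at 0.915 CPM against 0 to 0.336, Mucl2 at 5.19 CPM against 0.300 to 2.30 and Gip at 1.83 CPM against 0 to 0.636. In WT mTEClo replicate 8, it was Sprr3 at 0.300 CPM against 0, Adgre1 at 3.30 CPM against 0 to 1.22, Cdh5 at 0.300 CPM against 0, Xcl1 at 0.300 CPM against 0 and Ifit3 at 92.9 CPM against 66.4 to 78.7.

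Replicate 1 of WT mTEChi stood apart for Rfxank at 8.05 CPM against 16.4 to 19.2 and Fst at 14.9 CPM against 2.40 to 7.10. For WT mTEChi replicate 2 the genes were Rfx5 at 85.2 CPM against 111 to 126, Tnfsf9 at 22.8 CPM against 29.3 to 31.4, Tnfaip3 at 122 CPM against 108 to 114, Ascl3 at 1.80 CPM against 0 to 0.714, Muc5b at 92.4 CPM against 35.6 to 52.1 and Tas2r129 at 1.80 CPM against 0 to 0.620. Replicate 3 of WT mTEChi stood apart for Tas2r102 at 0.357 CPM against 0, Cd40 at 192 CPM against 175 to 182, Bst2 at 38.9 CPM against 27.0 to 31.5, Xcl1 at 15.4 CPM against 1.80 to 7.43 and Cdk1 at 36.1 CPM against 45.0 to 50.7. Replicate 5 of WT mTEChi stood apart for Tas2r105 at 1.50 CPM against 0 to 0.600, Tac1 at 30.6 CPM against 13.9 to 19.0 and Foxa3 at 6.00 CPM against 3.55 to 4.28. For WT mTEChi replicate 6 the gene was H2-DMa at 119 CPM against 112 to 115. Replicate 7 of WT mTEChi stood apart for Col6a3 at 137 CPM against 90.6 to 108. In KO mTEChi replicate 2 it was Fbln2 at 0.818 CPM against 0.

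For 19 genes whose gate difference is given in both genotypes, the difference between WT and KO passed the interaction test in edgeR. The fitted log2 gate difference in WT minus that in KO was 0.92 for Cd80, 1.17 for H2-Eb2, 1.62 for Ctsl, 1.31 for Cd83, 3.86 for Krt15, 6.04 for Il33, 1.20 for Dclk1, 6.07 for Myh3, 4.63 for Enpep, 5.16 for Sparc, 8.52 for Fbln2, 5.92 for Nrxn3, 1.56 for Neb, 6.58 for Tac1 and 3.54 for Pomc. It was -1.21 for Traf1, -0.82 for Map3k14, -3.01 for Lrp1b and -1.39 for Cxcl16. For Fbln2 and Il33 the KO mTEChi libraries held 2 and 4 reads in all, so the size of these differences depends on the prior count of the fit.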

How the results depend on the processing

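The direction of the gate difference in WT held for every called gene named in the report under all 37 alternatives with a fit. Calls were lost for Rfxank, Nfkb1, Ghrl, Foxa2 and Muc5b among 5-week libraries alone, for Rfxank, Nfkb1, Foxj1, Foxa2, Ifit1 and Mki67 among male libraries alone, for Nfkb1, Rela and Muc5b without the libraries under 2000000 reads, for Hexim1 and Foxj1 with age in the fit, for Muc2 in DESeq2, for Foxj1 in limma on the deposited normalized values, and for Nfkb1, Hexim1 and Foxj1 with no filter on low counts. Leaving out single libraries ended only calls for Nfkb1, Hexim1 and Foxj1. The count of genes higher and lower in WT mTEChi was 7539 and 5783 with RLE factors, 7505 and 5817 with upper quartile factors, 7515 and 5704 in DESeq2 and 7743 and 6708 without the libraries under 2000000 reads. With no filter, 42889 genes were tested and 12690 were higher. Requiring a change over 2-fold left 4555 and 2382 genes in WT, 3572 and 3207 in KO, and 518 below 0 in the difference between genotypes. An adjusted p under 0.01 left 1719 above and 1137 below 0 in that difference, and male libraries alone left 1209 below 0. A stricter threshold shortens the list by construction, and for male libraries fewer libraries were fitted. With a term for the 6 KO libraries, an alternative chosen after seeing the data, the difference between genotypes counted 2795 above and 2651 below 0, and the Cd80 difference was 0.35 (adjusted p 0.234 in edgeR). In KO mTEClo that term cannot be told apart from age or depth. Without the libraries under 2000000 reads the Cd80 difference was 0.42 (adjusted p 0.175 in edgeR). Leaving out each of the 23 libraries in turn gave 6683 to 7393 higher and 6129 to 6985 lower genes in WT, 5237 to 5643 and 5162 to 5755 in KO, and 2463 to 2863 above and 1620 to 2112 below 0 in the difference. The Pomc change in KO lost its call without 4 single KO libraries, with values from 0.87 to 1.22.

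For the replicate block, WT libraries with the same number did not deviate together (correlations of deviations -0.112 to 0.0800 over 7 pairs, with 1 of 7 mTEChi libraries closest to its own number). With the replicate block 6946 genes were higher and 6280 lower in WT, 5560 and 5275 in KO, and the difference between genotypes held 2494 above and 1898 below 0. Among genes named here it ended the WT call of Foxj1. Of the library measures, the share of reads in the top genes was lower in mTEChi by the test once the libraries under 2000000 reads were left out (mTEChi minus mTEClo -0.514 percentage points, adjusted exact permutation p 0.013). The difference in genes detected was 4808 to 4966 over leaving out each WT library. Among lists, requiring 30 counts left 14 of 26 bitter receptor genes and fitting WT libraries alone left 17 called lower, since fewer of them passed the filter.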

Other observations

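Gene families outside the lists were looked at after the values of all genes had been seen, and their counts are descriptions. Members near 0 in mTEClo passed the filter through mTEChi, where they are high. Of 1135 annotated olfactory receptor genes (Olfr) 35 were tested, 30 were higher and 2 lower in mTEChi, and of 325 vomeronasal receptor genes (Vmn) 7 were tested and all were higher. Ligand-gated channel subunits of synapses (Gabr and Gri) were higher in 23 of 31 tested and lower in 3. Detoxifying enzymes followed, with cytochrome P450 genes (Cyp) higher in 28 of 46 and lower in 9, and conjugating enzymes (Ugt, Gst and Sult) higher in 27 of 34 and lower in 2. Keratins were higher in 26 of 45 and lower in 6, and mucins higher in 10 of 12 and lower in 2. Over all genes tested 36.7% were higher and 33.4% lower.

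Ribosomal protein genes split, with 17 of 71 tested higher, 12 lower and none past 4-fold. Long noncoding RNAs had about the same balance as coding genes, 672 of 1841 higher and 601 lower, against 5965 of 15628 and 5097.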
